A study of Caenorhabditis elegans with 3 samples.

Results

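Clusters of reads that lay outside every annotated gene were examined across 3 DCR-1 PAR-CLIP libraries of Caenorhabditis elegans. DCR-1 is the worm's Dicer, and in PAR-CLIP its RNA contacts are read as T-to-C conversions where 4-thiouridine in the RNA was crosslinked to the protein. A cluster is a stretch of the genome on one strand where the authors' program found overlapping reads with such conversions. A cluster belonged to the set when the authors' annotation of its own strand named no gene, coding transcript or noncoding RNA and no antisense match to a transcript. It was called gene-flank when it fell in an annotated window of up to 1000 nt upstream or downstream of a gene on the same strand, and intergenic when it did not. Of 4598 nuclear clusters in the pooled consensus list, 340 met this rule, of which 150 were gene-flank and 190 intergenic. The rule used annotation alone and no reads, conversions or recurrence. Length and repeats were not set by it but are not wholly free of it. A longer cluster is likelier to touch a gene, and repeats come from the same annotation.

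All libraries came from whole young adult animals of a rescue strain that expresses FLAG-tagged DCR-1, labelled with 4-thiouridine and irradiated with UV light. The labels name RNases T1 and V1 for replicates 1 and 2, which carried a custom 3′ adapter, and RNase T1 alone for replicate 3, which carried the default adapter, although the design text names both RNases for the whole experiment. Nuclease and adapter therefore changed together and cannot be told apart. No label states whether cultures were separate, so the spread between libraries may be technical, and no untagged or input library was analysed here. The lists held 377 nuclear clusters with 7280 reads in T1/V1 replicate 1, 357 with 10312 reads in T1/V1 replicate 2 and 1281 with 24032 reads in T1 replicate 3. The consensus list pools the libraries, keeps clusters with reads from at least 2 of them, and held 88180 nuclear reads. Every listed cluster had at least 2 reads and 1 conversion.

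Dicer cuts RNA that is paired with itself or with a complementary strand: hairpin precursors of miRNAs, long paired RNA taken up from outside, and endogenous paired RNA that feeds small interfering RNA pathways. Such RNA can arise in the genome where both strands are transcribed or where inverted repeats and transposons are read through, and some of these places carry no gene model. Windows beside genes can also hold unannotated parts of the neighbouring transcript, such as an extended transcript end. Positions below are those of the deposited lists. The sources used here do not give their genome build, and no genome sequence was read at them.

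Clusters outside annotated genes made up 6.63% of the nuclear clusters of T1/V1 replicate 1 (25 of 377). The shares were 5.60% for T1/V1 replicate 2 (20 of 357) and 3.83% for T1 replicate 3 (49 of 1281). Exact 95% binomial intervals ran from 4.34 to 9.63%, from 3.46 to 8.52% and from 2.84 to 5.03%, so that of T1 replicate 3 overlapped both others. These and all later intervals cover counting error only. The T1/V1 libraries averaged 6.12% ± 0.728 (SD, n = 2), and 3.58% without clusters on C or G homopolymers, an alternative chosen after seeing the data that leaves T1 replicate 3 at 3.83%, so the order of the groups turns with them. In the pooled consensus list the share was 7.39% (6.65 to 8.19%), made up of 3.26% gene-flank and 4.13% intergenic clusters. Intergenic clusters outnumbered gene-flank ones in each library, at 17 against 8, 17 against 3 and 33 against 16.

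**Figure D1:**
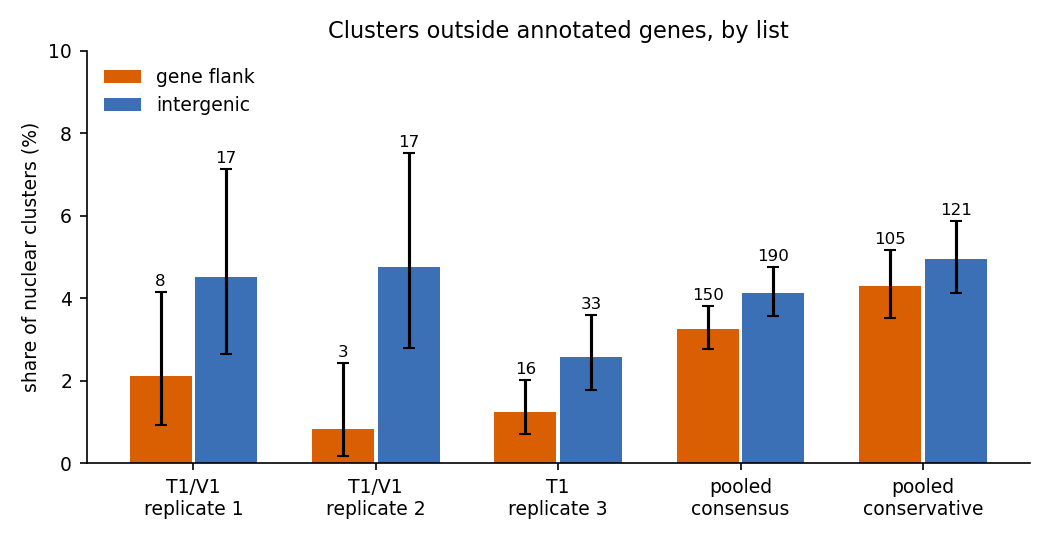
Share of nuclear clusters (%) that were gene-flank or intergenic in each library list, in the pooled consensus list and in a stricter pooled list that the authors named conservative, with exact 95% binomial intervals as error bars and the number of clusters above each bar. Intergenic clusters exceeded gene-flank clusters in every list, with 17 against 8 in T1/V1 replicate 1 and 190 against 150 in the consensus list.

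A few clusters held much of the signal. One intergenic cluster on the minus strand of chromosome III dominated every library. It supplied 250 of the 545 reads outside genes in the first T1/V1 library, 271 of 551 in the second and 632 of 1215 in the T1 library, which is 45.9, 49.2 and 52.0%. In the consensus list the same locus held 769 of 4445 reads, or 17.3%. By reads, members took 7.49 and 5.34% of the T1/V1 libraries, 5.06% of the T1 library and 5.04% of the consensus list. Without the strongest cluster of each list, an alternative chosen after seeing the data, the shares of reads averaged 3.49% in the T1/V1 libraries and were 2.49% in T1 replicate 3.

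The strongest intergenic locus, at chrIII:2431075-2431138 on the minus strand, was 64 nt long in the consensus list and carried 98 conversions among 1042 edits, where edits are the authors' count of changes in the reads, conversions included. It was called at nearly the same place in each library, with 250, 271 and 632 reads and with 33, 33 and 85 conversions in T1/V1 replicates 1 and 2 and T1 replicate 3. The 3 library clusters together spanned positions 2431072 to 2431127. The pooled count of 769 is below the sum of the library counts, 1153, so pooled and library counts are not on one scale, and each is given as its own list has it. No other consensus cluster lay within 1000 nt of it, and the annotation names no gene, repeat or flanking window on either strand.

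Another 4 intergenic loci were called in all 3 libraries. The locus at chrV:5588063-5588161 on the plus strand had 31, 71 and 80 reads, and its consensus cluster of 108 nt had 268 reads and 75 conversions. At chrX:13713561-13713613 on the minus strand, opposite the upstream window of K11E4.1, there were 21, 42 and 48 reads. A chromosome X locus on the plus strand, chrX:16272297-16272337, had 21, 28 and 29 reads with 11, 6 and 14 conversions, yet no cluster in the consensus list overlapped it. The weakest, chrIV:15187979-15188051 on the plus strand, had 5, 13 and 12 reads in the libraries and 27 in the consensus list. It followed a consensus cluster of 29 reads at chrIV:15187296-15187385, on the tRNA gene Y40H7A.t1. T1/V1 replicate 1 gave the lowest count at all 5 loci, and T1 replicate 3 the highest at 4 of them, the exception being the chromosome IV locus. T1/V1 replicate 1 was also the library with fewest nuclear reads and T1 replicate 3 the one with most. No gene-flank locus was called in all 3 libraries, 0 of 25 (exact interval 0 to 13.7%). Of all nuclear loci 9.11% were, a value within that interval.

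**Figure D2:**
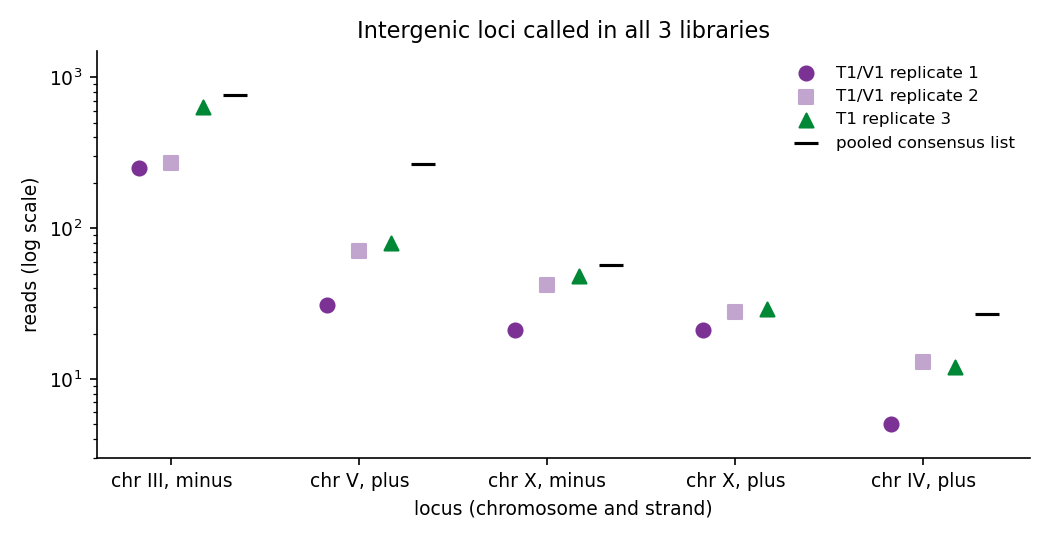
Reads (log scale) at the 5 intergenic loci called in all 3 libraries, with a symbol for each library and a dash for the pooled consensus cluster. The chromosome III locus had 250, 271 and 632 reads, and the plus-strand locus on chromosome X has no dash because the consensus list held no cluster there.

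Other intergenic clusters with many pooled reads were called in T1 replicate 3 alone or in no library list. The cluster at chrV:20006208-20006241 (minus strand, 34 nt) had 390 consensus reads from 3 libraries and 118 conversions, with a CeRep3 repeat annotated on the opposite strand, and was called with 77 reads in T1 replicate 3 and not in the T1/V1 lists. That at chrIII:49789-49828 (minus strand, 40 nt) had 184 consensus reads and 32 conversions and 6 reads in T1 replicate 3. The clusters at chrX:2329025-2329105 and chrX:16566559-16566634, both on the plus strand, had 259 and 90 consensus reads and overlapped no cluster of a library list, though T1/V1 replicate 2 held one of 2 reads at chrX:2328983-2329003, just before the first. These last clusters had many conversions, 241 among 353 edits and 71 among 101 edits, so about 68.3 and 70.3 of every 100 edits were T-to-C, against 9.40 of 100 at the chromosome III locus. The remaining 2 of the 10 strongest intergenic clusters were chrII:2681518-2681543 with 27 reads and 5 conversions, opposite the upstream window of F34D6.1, and chrX:16721904-16721987 with 24 reads and 17 conversions.

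Among gene-flank clusters, the strongest lay downstream of flp-8 (F31F6.4), which encodes an FMRFamide-like neuropeptide. The cluster, chrX:14882863-14882888 on the plus strand, was 26 nt long, opposite a CELE45 repeat, and held 322 reads with 535 conversions among 791 edits. It had reads and conversions from all 3 libraries, yet no library list held it. It was also absent from the authors' conservative list, a stricter pooled list in which every member had conversions from at least 2 libraries. A read can carry several conversions, and conversions exceeded reads in 47 of the 340 consensus members (13.8%), against 13% of all 4598 nuclear clusters.

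Upstream of Y81B9A.1, 4 consensus clusters lay within a CER10-I_CE element, the internal part of an LTR retrotransposon, on the element's own strand. From chrX:9191777 to chrX:9192276 they held 8, 21, 89 and 54 reads in genome order, 172 in all, with 6, 31, 99 and 43 conversions. They were the only 4 of all 4598 nuclear consensus clusters with an LTR retrotransposon annotated on their own strand. None of them appeared in a library list.

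Upstream of C08E8.4, clusters at chrV:18371232-18371267 and chrV:18370946-18370974 on the plus strand had 92 and 31 consensus reads, and the first was called with 4 reads in T1 replicate 3. A cluster upstream of dpy-27 (R13G10.1), which encodes a condensin subunit of the dosage compensation complex, had 74 reads and 8 conversions at chrIII:3820189-3820236 on the minus strand. Upstream of ZK262.2 and opposite a CeRep3 repeat there were 45 reads with 4 conversions at chrV:18413360-18413396. A further 38 reads with 7 conversions, upstream of gpla-1 (F58H1.4) at chrV:11938598-11938639, lay on a fragment annotated as LSU-rRNA_Cel, a copy of large-subunit ribosomal RNA. For that cluster, reads from ribosomal RNA genes elsewhere and from the fragment itself cannot be separated with these lists.

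Downstream of CD4.11, abutting clusters at chrV:5587268-5587328 and chrV:5587330-5587405 on the plus strand had 61 and 58 consensus reads and 35 and 37 reads in T1 replicate 3. The intergenic cluster with 268 reads described above begins 794 nt from the start of the first. On the minus strand, clusters of 9 and 29 consensus reads lay between 5586938 and 5587069, opposite CD4.11 or its downstream window. Clusters overlapping the second were called in each library with 6, 7 and 14 reads. Downstream of dnc-6 (Y54E10A.5), which encodes a dynactin subunit, the cluster at chrI:3171650-3171720 had 53 reads and 14 conversions, opposite an antisense cluster of 114 reads and 38 conversions.

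Most members were weak. The median member had 3 reads in the consensus list (95% order-statistic interval 3 to 4), against 4 for all nuclear clusters (4 to 4). Gene-flank members had a median of 4 reads (3 to 4) and intergenic ones 3 (3 to 4). At least 10 reads were found in 46 members (13.5%), against 20.6% of all nuclear clusters, and at most 3 reads in 180 (52.9%), against 42.7%. Conversions fell at 1 position in 172 members (50.6%), against 44.3%. In T1/V1 replicates 1 and 2 and T1 replicate 3 the median member had 6, 7.5 and 3 reads, beside 7, 8 and 3 for all nuclear clusters of those lists.

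Clusters outside genes were short. Their median length in the consensus list was 36 nt (34 to 38), both for gene-flank and for intergenic members, against 48 nt (47 to 49) for all nuclear clusters. Lengths of at most 35 nt were seen in 166 of 340 members (48.8%), against 26.3% of all nuclear clusters, and lengths of 20 to 26 nt in 66 (19.4%), against 7.2%. Stronger clusters were longer. Among clusters with at least 10 reads the median was 48.5 nt (40 to 71) for the 46 members and 76 nt (74 to 79) for all 945. In the library lists, medians were 37, 37.5 and 42 nt for members and 40, 45 and 51 nt for all nuclear clusters. Their intervals, 33 to 40, 32 to 43 and 33 to 51 nt for members and 38 to 42, 42 to 48 and 51 to 53 nt for all, overlapped or met in each library. A longer cluster has more bases that can touch a gene, so the rule itself can favour short members, and its part was not tested.

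**Figure D3:**
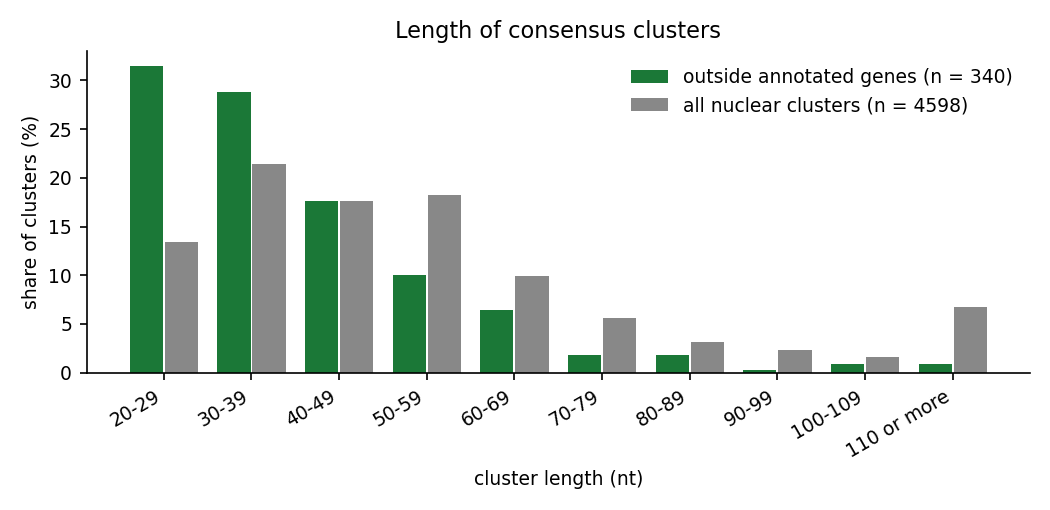
Length of consensus clusters (nt, in bins of 10) as the share (%) of the 340 members and of all 4598 nuclear clusters. Of the members 31.5% were 20 to 29 nt long, against 13.4% of all nuclear clusters, and 0.882% were 110 nt or longer, against 6.74%.

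T-to-C changes made up a median of 66.7 per 100 edits in members (66.7 to 68.3), against 50 in all nuclear clusters (50 to 50). This median followed the weak clusters. Among clusters with at least 10 reads it was 33.3 for members (23.1 to 50) and 33.4 for all nuclear clusters (33.3 to 37.1), and summed over all clusters, conversions were 41.4 per 100 edits in members and 42.1 in all nuclear clusters. Within the members the summed value was 55.5 in gene flanks and 32.9 in intergenic clusters. The flp-8 cluster gave 535 of the 1337 gene-flank conversions, and the chromosome III locus gave 1042 of the 3983 intergenic edits. In the library lists the medians were 50, 36.7 and 37.5 for members, beside 44.4, 28.6 and 40 for all nuclear clusters.

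Members were spread over all 6 chromosomes, with 49 on I, 67 on II, 55 on III, 44 on IV, 80 on V and 45 on X. Chromosome V held 23.5% of members (19.1 to 28.4%), against 16.1% of all nuclear clusters, and chromosome I 14.4% (10.9 to 18.6%), against 19.1%. Strand was even, with 171 of 340 members on the plus strand (50.3%), against 50.7%. The authors marked mapping as dubious for 4 members, all of them intergenic, which is 1.18%, against 0.5% of all nuclear clusters.

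Of the 150 gene-flank clusters, 105 lay in an upstream window and 73 in a downstream window, 28 of them in both. Within 500 nt of the gene there were 61 upstream and 49 downstream. Among the 190 intergenic clusters 173 carried the authors' own intergenic token, and the other 17 carried tokens such as repeats but no gene window. An upstream window of a gene on the opposite strand was annotated for 28 intergenic and 9 gene-flank clusters. A transcript or downstream window on the opposite strand was annotated for 0 of the 340, since such clusters carry the antisense token that the rule left out.

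The gene-flank clusters of the consensus list stood beside 162 genes, of which 155 matched the gene table. These were 152 protein-coding genes, 2 pseudogenes and 1 lncRNA. Of the 152 protein-coding genes 26 (17.1%, interval 11.49 to 24.05%) also had a consensus cluster in an exon or intron on their own strand. Of all 19983 protein-coding genes 2305 did (11.53%), a value just within that interval. The 26 were 13 of the 89 with a cluster in their upstream window (8.01 to 23.7%) and 13 of the 65 with one in their downstream window (11.1 to 31.8%). Examples, chosen after their values were seen, were smk-1 (F41E6.4), with 2 clusters of 5 and 2 reads in its downstream window and 2 clusters with 5 reads in the gene, and egl-30 (M01D7.7), the Gq alpha subunit gene, with 11 reads downstream and 2 reads in the gene. Of the name groups looked for, none was seen among the neighbours, but few were to be found: 0 of the 162 genes (exact upper limit 2.25%) and 437 of the 19983 protein-coding genes (2.19%) carried a name of the ribosomal protein (rpl, rps), collagen (col), vitellogenin (vit), major sperm protein (msp), histone (his) or unc groups.

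Repeats were annotated more often in members than in the lists as a whole. On the cluster's own strand, 35 of 340 consensus members carried a repeat (10.3%, 7.28 to 14.0%), against 2.28% of all nuclear clusters. On either strand the numbers were 65 of 340 (19.1%) and 4.57%. DNA transposons accounted for 16 of the 35 members, simple or low-complexity repeats for 9 and the LTR element for 4. Members were thus 16 of the 36 nuclear clusters on DNA transposons, 4 of the 4 on LTR elements and 9 of the 55 on simple or low-complexity repeats. The rule kept clusters on genes out of the members, and the repeat content of intergenic DNA itself was not measured here.

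In the library lists, a repeat on the cluster's own strand was annotated for 8 of 25, 4 of 20 and 1 of 49 members, against 4.24, 1.4 and 1.33% of all nuclear clusters. On either strand the counts were 16 of 25, 8 of 20 and 6 of 49, against 11.7, 6.16 and 3.43%. Most of those in the T1/V1 libraries were homopolymers, described below.

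By reads, 333 of 4445 member reads (7.49%) fell on a repeat of the same strand, against 1.28% of all nuclear reads. On a repeat of the opposite strand fell 873 (19.6%), against 2.75%. The opposite-strand reads came mainly from CeRep3, with 435 reads in 2 clusters, and CELE45, with 329 reads in 4 clusters. Single clusters held most of both, 390 of the CeRep3 reads at chrV:20006208-20006241 and 322 of the CELE45 reads at the flp-8 cluster. Runs of A, named (A)n, lay on the cluster's own strand in 4 members with 30 reads.

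Repeats whose names mark inverted or palindromic elements or terminal inverted repeats (IR, PAL, NPAL, TIR) were found on either strand in 9 members (2.65%, 1.22 to 4.97%), against 0.609% of all nuclear clusters. All 9 were weak, with 32 reads in all. The strongest were a cluster of 5 reads opposite PALTTAA3_CE at chrIII:421694-421729, a cluster of 5 reads on TIR9TA1B_CE upstream of H11E01.2 at chrX:1621324-1621351, and clusters of 4 reads on PALTTTAAA1 at chrV:950986-951018 and on IR4 at chrI:4683550-4683572. The minisatellite MINISAT1_CE held a further cluster of 7 reads at chrIII:12091739-12091776. Inverted repeats were not searched for in sequence.

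Runs of C formed a group of their own in the T1/V1 libraries. Clusters on a C or G homopolymer, with C on the cluster's strand in every case, made up 15 of 25 members in T1/V1 replicate 1 (60%, 38.7 to 78.9%), against 7.16% of all nuclear clusters of that library. In T1/V1 replicate 2 they were 5 of 20 (25%, 8.66 to 49.1%), against 2.52%. In T1 replicate 3 they were 0 of 49 (exact upper limit 7.25%), and in the consensus list 0 of 340 (exact upper limit 1.08%). All nuclear clusters of those lists also held 0%.

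The homopolymer clusters were 30 to 44 nt long in T1/V1 replicate 1 and 37 to 43 nt in T1/V1 replicate 2, with 2 to 50 and 2 to 38 reads. The strongest gene-flank example, upstream of the noncoding RNA gene Y41D4B.25 at chrIV:1647365-1647408, had 43 and 38 reads in T1/V1 replicates 1 and 2 and 52 and 56 conversions. The intergenic cluster at chrX:15511883-15511925 had 37 and 31 reads and 18 and 12 conversions. A cluster at chrX:5874468-5874507 had 50 reads but 1 conversion among 98 edits and was called in T1/V1 replicate 1 alone. All 5 homopolymer clusters of T1/V1 replicate 2 overlapped one of T1/V1 replicate 1, and none overlapped a cluster of T1 replicate 3 or of the consensus list. Leaving them out gave the T1/V1 share of 3.58% stated above. The 3′ adapter, the nuclease and these clusters moved together between libraries, and the part of either in their presence was not tested.

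The other gene-flank clusters called in the T1/V1 lists had few reads. In T1/V1 replicate 1 a homopolymer cluster between citk-1 (W02B8.2) and mltn-3 (W02B8.3) had 13 reads and another downstream of F01G12.6 had 6. In T1/V1 replicate 2 the F01G12.6 cluster had 3 reads and a cluster upstream of cog-1 (R03C1.3), a homeobox gene, had 5. In T1 replicate 3, after the CD4.11 clusters, the strongest were those of 6 reads each downstream of F08F1.9 and upstream of H27M09.5.

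Recurrence was counted as at least 1 shared base on the same strand. Of the 25 members of T1/V1 replicate 1, 10 overlapped a cluster of the other T1/V1 library (40%, against 42.7% of all nuclear clusters). In comparison, 6 overlapped a cluster of T1 replicate 3 (24%, 9.36 to 45.1%, against 59.4%), and 11 overlapped at least 1 of these (44%, 24.4 to 65.1%, against 63.7%). Members of this library were thus found in its T1/V1 partner at a share close to that of all its nuclear clusters, and in T1 replicate 3 at a share whose interval lay below theirs.

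For the 20 members of T1/V1 replicate 2 the counts were 10 in T1/V1 replicate 1 (against 45.9%), 7 in T1 replicate 3 (35%, 15.4 to 59.2%, against 62.2%) and 12 in at least 1 of these (60%, 36.1 to 80.9%, against 66.7%). Of the 49 members of T1 replicate 3, 6 were found in T1/V1 replicate 1 (against 16.6%), 7 in T1/V1 replicate 2 (against 16.5%) and 8 in at least 1 of these (16.3%, 7.32 to 29.7%, against 22.1%). Among T1 replicate 3 clusters with at least 5 reads the share in at least 1 T1/V1 library was 42.1% for members (8 of 19, 20.3 to 66.5%) and 48.1% for all nuclear clusters. For all 3 libraries, with no minimum of reads, the interval for at least 1 other library held the value of all nuclear clusters. Without the homopolymer clusters, 6 of 10 and 7 of 15 members of the T1/V1 libraries were found in T1 replicate 3, beside 64% and 63.8% of their nuclear clusters treated the same way.

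The pooled list held few of the T1/V1 members. A consensus cluster overlapped 4 of 25 members of the first T1/V1 library (16%, 4.54 to 36.1%, against 66.6% of all nuclear clusters) and 5 of 20 of the second (25%, 8.66 to 49.1%, against 69.2%). For T1 replicate 3 it was 30 of 49 (61.2%, 46.2 to 74.8%, against 71.8%). Without the homopolymer clusters the counts were 4 of 10 (40%, 12.2 to 73.8%) and 5 of 15 (33.3%, 11.8 to 61.6%), beside 71.7 and 71.0% of the nuclear clusters. Of the 16 gene-flank clusters of T1 replicate 3, 14 were in the consensus list (61.7 to 98.4%) and 0 in a T1/V1 library (0 to 20.6%). Of its 33 intergenic clusters 16 were in the consensus list (30.8 to 66.5%) and 8 in a T1/V1 library. The shares of all nuclear clusters of that library were 71.8 and 22.1%, and the counts here are small.

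Several T1 replicate 3 members with many reads were absent from the consensus list. Over all nuclear clusters of that library, with no minimum of reads, 71.8% were covered. The share at 10 or more reads is not given here, so these members are named as examples only. Of the 14 members of T1 replicate 3 with at least 10 reads, 9 were covered by a consensus cluster. The other 5 were chrV:3836043-3836068 (69 reads), chrIV:410835-410860 (35 reads), chrX:16272297-16272337 (29 reads), chrX:3181518-3181543 (19 reads) and chrII:2860752-2860776 (14 reads). Their lengths were 26, 26, 41, 26 and 25 nt. Of these, chrX:16272297-16272337 was also called in both T1/V1 libraries, the other chromosome X cluster had 9 reads in T1/V1 replicate 2, and the chromosome II cluster, opposite a CeRep3 repeat, had 5 reads in T1/V1 replicate 1.

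Read from the pooled side, 30 of 340 consensus members (8.82%) overlapped a cluster of any library list, against 20.8% of all nuclear clusters, and all 30 were found in T1 replicate 3 (against 19.6%). The T1/V1 lists held 4 and 5 of the 340 (against 5.07% in each), all intergenic. Reads came from all 3 libraries in 77 members (22.6%, 18.3 to 27.5%), against 44.9%, and conversions from all 3 in 31 (9.12%), against 13.2%. The conservative list kept 226 of the 340 (66.5%, 61.2 to 71.5%), against 53.2%. Members thus had reads from all 3 libraries less often than nuclear clusters in general, and were kept in the conservative list more often.

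Among the 46 members with at least 10 reads, 33 had reads from 3 libraries (71.7%, 56.5 to 84.0%), against 92%. A library list held 21 of them (45.7%, 30.9 to 61.0%), against 60.6%, so that 25 strong pooled clusters were in no library list. By library, 4 were in T1/V1 replicate 1 (against 22.5%), 5 in T1/V1 replicate 2 (against 23%) and 21 in T1 replicate 3 (against 57.1%). Conversions came from all 3 libraries in 22 of 46 (47.8%), against 46.2%, and the conservative list kept 40 of 46 (87.0%, 73.7 to 95.1%), against 77.6%, a value within the interval.

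**Figure D4:**
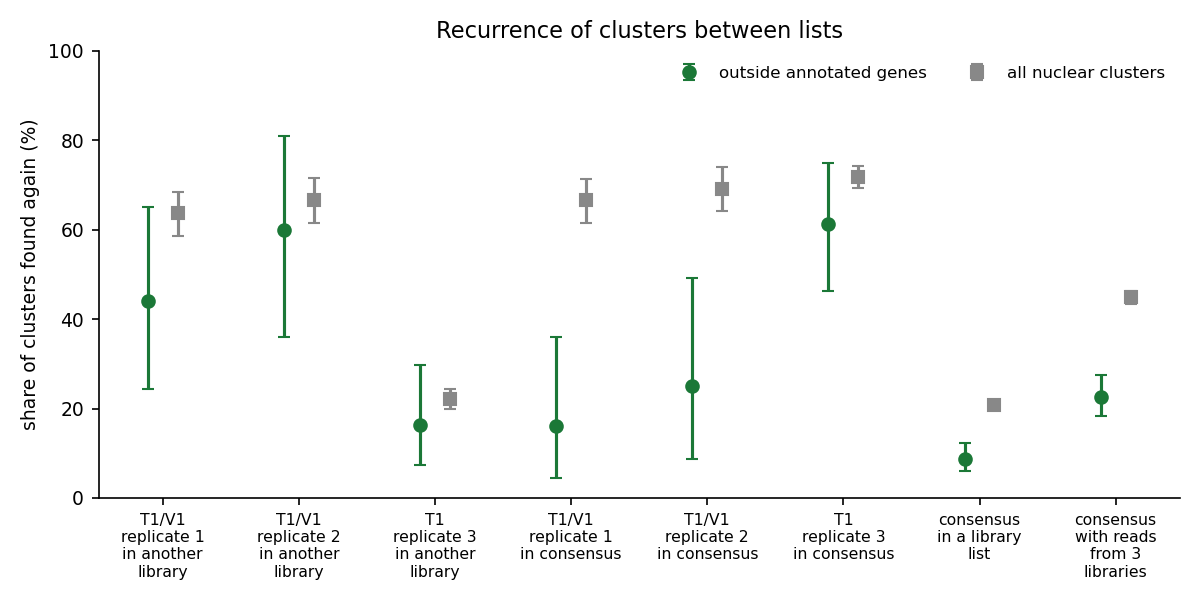
Share (%) of clusters of each list found again in another list, or with reads from 3 libraries, for members and for all nuclear clusters, with exact 95% binomial intervals. Members lay farthest below all nuclear clusters for T1/V1 clusters covered by the consensus list, at 16% against 66.6% and 25% against 69.2%.

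When library clusters that overlapped were joined into loci, 76 loci held a member. Of these 63 were found in 1 library (82.9%), 8 in 2 and 5 in 3, against 1254, 153 and 141 of all 1548 nuclear loci. Loci in all 3 libraries were thus 6.58% of those with a member (2.17 to 14.7%) and 9.11% of all nuclear loci.

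Signal on both strands at the same place was more frequent among members than in the whole list. A consensus cluster on the opposite strand shared at least 1 base with 17 of 340 members (5%, 2.94 to 7.88%), against 1.17% of all nuclear clusters. Within 200 nt an opposite-strand cluster was found for 36 (10.6%, 7.53 to 14.4%), against 2.57%. Of the 17, 9 were gene-flank and 8 intergenic, and they formed 12 overlapping pairs with 2 to 82 shared bases. In 7 pairs both clusters were members, and in 5 the partner carried the antisense token. Both members of a pair are counted, and F34D6.1, C36A4.10 and K02E2.7 each had more than 1 pair beside them. The clusters are therefore not independent, and the intervals may be too narrow. By rule, members lie where no transcript or downstream window is annotated on the opposite strand. In the conservative list the counts were 8 of 226 members sharing a base with an opposite-strand cluster (3.54%), against 0.572%, and 23 of 226 within 200 nt (10.2%), against 1.84%.

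Upstream of F34D6.1 on chromosome II, intergenic plus-strand clusters of 3 and 27 reads faced gene-flank minus-strand clusters of 6 and 4 reads between positions 2681478 and 2681556, and a further minus-strand cluster of 4 reads lay at 2681715. Upstream of C36A4.10 on chromosome III, minus-strand clusters of 16 and 8 reads were each overlapped by a plus-strand cluster of 2 reads, and another plus-strand cluster of 8 reads, on a (TGG)n repeat, followed. Downstream of K02E2.7 on chromosome V, minus-strand clusters of 7 and 4 reads at 20379630 and 20379688 alternated with plus-strand clusters of 4, 4 and 7 reads. T1/V1 replicate 1 had a cluster of 2 reads in the same window. At the left end of chromosome II, clusters at 275 to 359 on the plus strand and 278 to 377 on the minus strand had 16 reads each and shared 82 bases, with 1 and 13 conversions.

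In 10 of the 12 pairs at least 1 strand had under 10 reads. The pairs with more on both strands were that at the end of chromosome II and that downstream of dnc-6, with 53 reads against 114 on the minus strand. Near ZC395.5 and ZC395.6 on chromosome III a member of 4 reads faced an antisense cluster of 27.

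**Figure D5:**
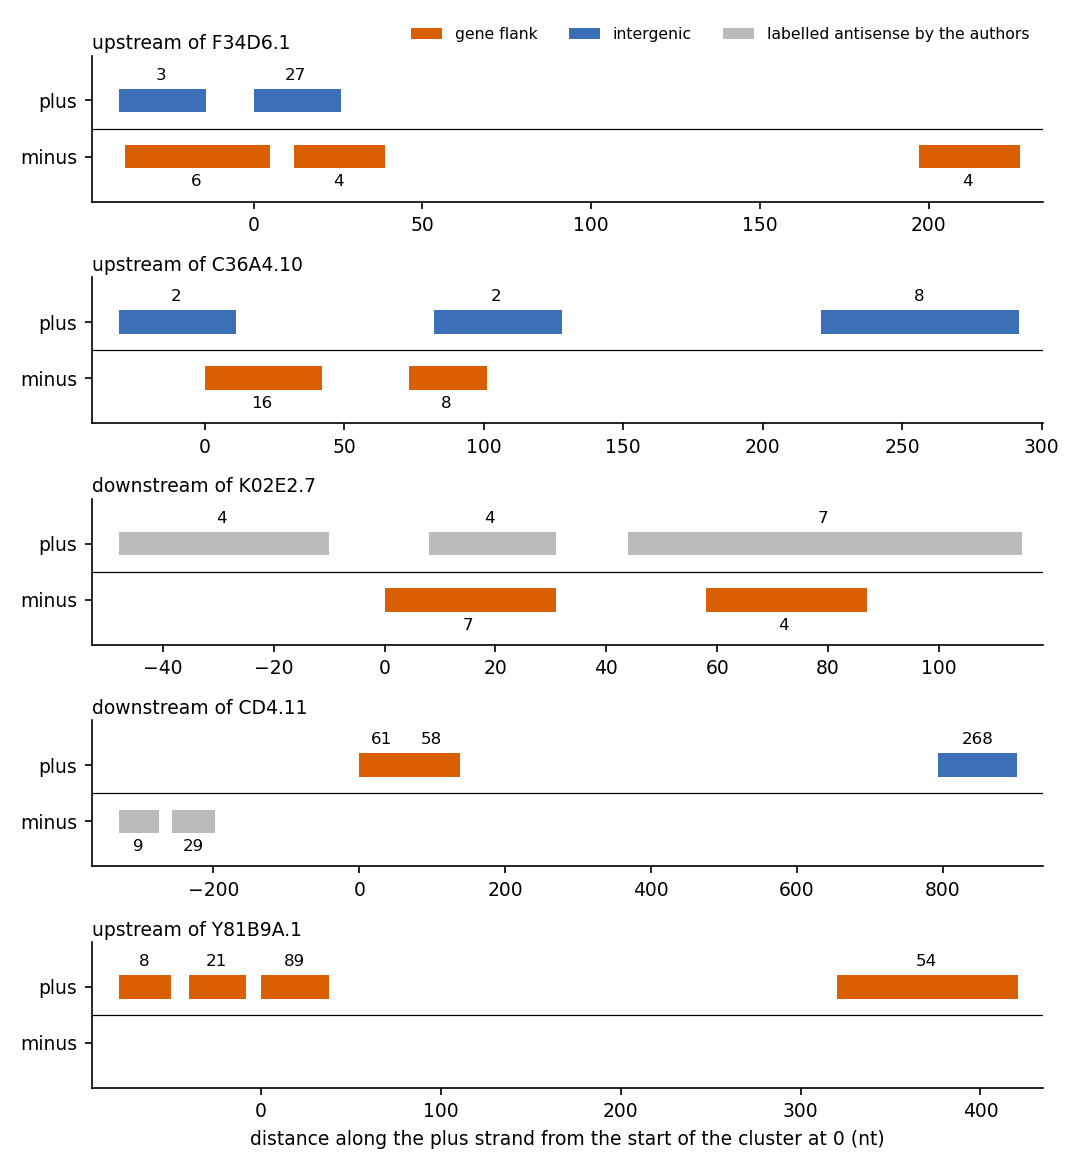
Consensus clusters at 5 loci by distance (nt) along the plus strand from the start of the cluster at 0, with plus-strand clusters above the line, minus-strand clusters below it and the number of reads beside each; gray boxes are clusters that the authors labelled antisense, and each panel has its own scale. Clusters of both strands interleave beside F34D6.1, C36A4.10 and K02E2.7, while the 4 clusters of the CER10-I_CE element upstream of Y81B9A.1, with 8, 21, 89 and 54 reads, lie on the plus strand.

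On their own strand, members had fewer neighbours in the consensus list and not in the conservative list. Another consensus cluster lay within 1000 nt on the same strand for 74 of 340 (21.8%, 17.5 to 26.5%), against 37.9% of all nuclear clusters, and within 200 nt for 51 (15%), against 21.9%. In the conservative list the shares within 1000 nt were 23.5% for members (18.1 to 29.5%) and 25.2% for all nuclear clusters, and within 200 nt 14.6 and 14.1%. For 62 of the 74 consensus members, at least 1 of those neighbours was itself a member.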

How the data were processed

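The members and lists were chosen with earlier results of these data known. The authors deposited headerless lists of clusters, 1 per library and 2 pooled, each made by their cluster caller at an estimated false discovery rate of 5%, per the file rows. Bowtie2 2.1.0 is named in the submitters' processing notes, with no role given. Genome build, annotation release and trimming are not stated in the labels or files. Reads, edits, conversions and length are whole-number counts per cluster as deposited, not normalized. The authors' entropy score per cluster was also deposited and was not used here.

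Clusters were sorted by the authors' annotation tokens with Python 3.11.15, pandas 2.3.3 and numpy 2.4.6, leaving out 107 mitochondrial clusters of the consensus list. Columns were read as 1-based positions. Gene names and biotypes came from a RefSeq gene table of another stated assembly, used for names alone. Medians carry 95% order-statistic intervals, and shares, those of 0 included, exact Clopper-Pearson 95% intervals (SciPy 1.17.1). PCR reads without molecular identifiers are not independent molecules. Clusters of 1 library are not replicates, so no test was run across clusters, and each value stands beside that of all nuclear clusters of its list, members included. Named clusters were the 10 with most reads in each subset of the consensus list, the 3 with most in each library, every locus called in all 3 libraries, opposite-strand pairs and clusters on named repeats. Other clusters named, such as those on homopolymers or outside the consensus list, were chosen after their values were seen. Alternatives were a minimum of 5 reads, the conservative list, shares of reads and bases, stricter overlap, either strand, leaving out repeats, and leaving out each T1/V1 library. The script was tested on simulated clusters. Figures were drawn with matplotlib 3.10.9.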

Additional observations from a re-analysis of the deposited data

How the results depend on the processing

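Of 39 alternative values for 11 results, 22 moved by less than the spread or interval of the value as reported and 17 moved by more. Values set side by side changed order in several cases. T1/V1 against T1 replicate 3 turned without homopolymer clusters (3.58 against 3.83%). Conversions per 100 edits in members against all nuclear clusters turned when pooled (41.4 against 42.1). Recurrence in another library was 44% for T1/V1 replicate 1 and 60% for T1/V1 replicate 2. Without homopolymer clusters, chosen after seeing the data, it was 60 and 46.7%. Same-strand neighbours within 200 nt were found for 15% of consensus members, against 21.9% of all nuclear clusters. In the conservative list these shares were 14.6 and 14.1%. The share of consensus clusters outside annotated genes, 7.39%, was 9.23% in the conservative list, 5.62% among clusters with at least 5 reads, 5.04% of reads and 5.18% of bases. The T1/V1 share of 6.12% ran from 5.60 to 6.63% when either library was left out. It was 3.58% without homopolymer clusters and 3.49% of reads without the strongest cluster, both chosen after seeing the data. For T1 replicate 3 the share was 5.06% of reads and, without the strongest cluster, 2.49%. The median of 66.7 conversions per 100 edits was 75 in the conservative list and 54.5 at 5 or more reads; pooled over clusters it was 41.4, and 52.4 without the 2 strongest clusters (chosen after seeing the data). At 5 or more reads the median length was 45 nt. With that minimum in both lists, recurrence in another library reached 83.3% for T1/V1 replicate 2 (51.6 to 97.9%) and 42.1% for T1 replicate 3. The share of all nuclear clusters of T1/V1 replicate 2 at that minimum is not given here, so the 83.3% is no trait of the members. Repeats on either strand, an alternative chosen after seeing the data, were annotated for 19.1% of members, and an opposite-strand partner within 200 bases was found for 10.6%. The cause of these shifts was not tested. No paired analysis was possible because the groups share no replicate numbers and no test was run.

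Each library list held at most 49 members, so intervals on library shares are wide, and the T1 group is 1 library. Most members of the consensus list had 2 or 3 reads, where conversions per 100 edits take few values. Absence from a list does not show absence of RNA. Nuclease and adapter differ together between the groups. No untagged or input library was analysed here, so reads that reached the lists without DCR-1 cannot be separated from bound RNA. The clusters' sequence, and so any inverted repeat or paired structure, was not examined.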
